A study of Mus musculus with 12 samples.

Results

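The 76 genes described here encode proteins of the cytosolic ribosome. They were taken by symbol from a table of 25117 rows, as every symbol made of Rpl or Rps and a number, with or without a final a or x, together with Rplp0, Rplp1, Rplp2 and Rpsa. Of the 76, 46 encode proteins of the large subunit and 30 encode proteins of the small subunit. Pseudogenes and paralogs with other endings are outside this rule, as are genes such as Fau, Rack1 and Rps3a1, which encode ribosomal proteins under other symbols. Genes that reached 1 TPM in 3 or more of the libraries were tested, 12653 in all, and every one of the 76 was among them.

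RNA came from mouse embryonic fibroblasts (MEFs) whose cells all carried Rbbp5 flox/flox and Rosa26 Cre +/+. RBBP5 is a core subunit of the complexes that methylate histone H3 at lysine 4. There were 4 groups of 3 libraries. By their labels, the KO, EBSS libraries had tamoxifen for 7 days and then 16 hours in Earle's balanced salt solution (EBSS), which holds glucose and salts but no amino acids or serum. The labels of the wildtype, EBSS libraries give EBSS for 16 hours and no tamoxifen, which Rbbp5 levels put in doubt for both EBSS groups. The KO, full medium group had tamoxifen for 7 days and then 16 hours in DMEM with 10% serum, and the wildtype, full medium group had the same medium with no tamoxifen. Tamoxifen went only to cells labelled KO, so what the drug or active Cre does by itself and what loss of RBBP5 does cannot be told apart. The labels name the replicates biological but do not say which embryos or cultures they came from, so p-values measure the spread between these libraries. The share of cells in which the floxed alleles recombined is not given in the sources used here. In these bulk samples, fewer cells of a type and less RNA per cell cannot be told apart.

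A ribosome is built from ribosomal RNA and mostly equal numbers of each ribosomal protein, so cells need these proteins in matched amounts. The small subunit reads the mRNA. The large subunit joins amino acids and holds the tunnel through which the new chain leaves. Most ribosomal protein mRNAs start with a run of pyrimidines, the terminal oligopyrimidine (TOP) motif, through which mTORC1 and LARP1 control their translation and stability when amino acids run out. Ribosomal proteins made in excess are degraded by the proteasome, and free Rpl5 and Rpl11 bind MDM2.

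Values were TPM, an abundance relative to the rest of the library and corrected for transcript length. The read depth behind them is unknown, because TPM keeps none. Changes are differences of log2(TPM + 1), and each adjusted p is from limma with Benjamini-Hochberg adjustment over all 12653 genes. A change is called where that p is under 0.05. Rbbp5 itself was at 7.47, 9.34 and 8.31 TPM in KO and 26.2, 25.7 and 26.2 TPM in wildtype, full medium, but at 31.9, 24.6 and 23 TPM in libraries labelled KO, EBSS and 12.4, 14 and 11.8 TPM in libraries labelled wildtype, EBSS. The targeted gene thus went against the genotype labels in EBSS, and every direction between those groups rests on labels in doubt. The 3 RNAs without poly(A) tails that were measured (Rn45s, Rpph1, Rmrp) summed to 124 to 257 TPM in labelled KO, EBSS, 3249 to 4439 TPM in labelled wildtype, EBSS, 183 to 283 TPM in KO, full medium and 74.2 to 76.4 TPM in wildtype, full medium. Replicate 3 of labelled wildtype, EBSS listed 1122 tested genes at 0, against 12 to 229 in the other 11 libraries. It also stood apart in its 6 macrophage markers, which summed to 83.8 TPM against 21.7 and 26.1 TPM in the other libraries of its group, with Lyz2 at 48.4 TPM. Replicate 1 of labelled KO, EBSS had 5521 TPM in 8 fibroblast markers, against 8177 and 8247 TPM in the other libraries of its group.

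All 8 fibroblast markers passed the filter on low values, and their sums were 5521 to 8247 TPM in labelled KO, EBSS, 4754 to 5664 TPM in labelled wildtype, EBSS, 6464 to 7108 TPM in KO, full medium and 8289 to 8531 TPM in wildtype, full medium. Vim was the highest of them in every group, while Thy1 was at most 1.32 TPM in all 12 libraries and listed at 0 in 1 of them. The 6 macrophage markers summed to 29.7 to 33.3, 21.7 to 83.8, 63.8 to 68.7 and 28.6 to 29.7 TPM in the same order of groups, with 3 of 6 tested and Adgre1 at 0 in all 6 libraries of labelled KO, EBSS and wildtype, full medium. The 6 epithelial markers summed to at most 11.2 TPM and the 4 endothelial markers to at most 7.25 TPM in any library. The 4 neural markers, of which Nes was the highest, summed to 99.55 to 184, 43.99 to 59.99, 75.6 to 84.7 and 149.9 to 163 TPM. The part of these differences in the results on ribosomal protein genes was not tested.

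The share of a library's TPM taken by the 76 genes was higher in labelled wildtype, EBSS than in the other groups. It was 14.4%, 14.6% and 14.6% in labelled KO, EBSS, against 33.6%, 32.2% and 31.1% in labelled wildtype, EBSS. It was 18.1%, 16.1% and 17.1% in KO, full medium, against 14.7%, 14.4% and 14.6% in wildtype, full medium. The groups did not overlap within either medium, while labelled KO, EBSS and wildtype, full medium overlapped.

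By summed TPM, large subunit genes took a smaller part of this pool in KO than in wildtype, full medium. The summed TPM of the 46 large subunit genes over that of the 30 small subunit genes, on the log2 scale, was 0.57 ± 0.01 in KO and 0.64 ± 0.02 in wildtype, full medium (SD, n = 3 each). In EBSS it was 0.66 ± 0.01 in libraries labelled KO and 0.51 ± 0.06 in libraries labelled wildtype. The single libraries were at 0.56, 0.58 and 0.56 in KO, full medium, against 0.66, 0.62 and 0.64 in wildtype, full medium, and at 0.67, 0.67 and 0.65 in labelled KO, EBSS, against 0.47, 0.47 and 0.58 in labelled wildtype, EBSS. The groups of a medium did not overlap, and replicate 3 of labelled wildtype, EBSS lay closest to the others. As a part of the pool, the large subunit made up 59.7% ± 0.22 in KO and 60.9% ± 0.35 in wildtype, full medium, and 61.3% ± 0.24 and 58.7% ± 1.07 in labelled KO and labelled wildtype, EBSS (SD, n = 3). The ratio depends on the sums, to which a few abundant small subunit mRNAs contribute much. The difference of the subunits' median log2(TPM + 1) was −0.13 in KO and −0.05 in wildtype, full medium, and −0.11 in labelled KO and −0.14 in labelled wildtype, EBSS. With medians the groups overlapped in both media. In full medium the libraries were at −0.19, −0.026 and −0.16 in KO and −0.020, −0.075 and −0.045 in wildtype, and in EBSS at −0.038, −0.13 and −0.17 in labelled KO and −0.14, −0.18 and −0.090 in labelled wildtype. The difference between the groups thus held for the sums and not for the medians, and no test was made of a score over all genes of the list.

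**Figure D1:**
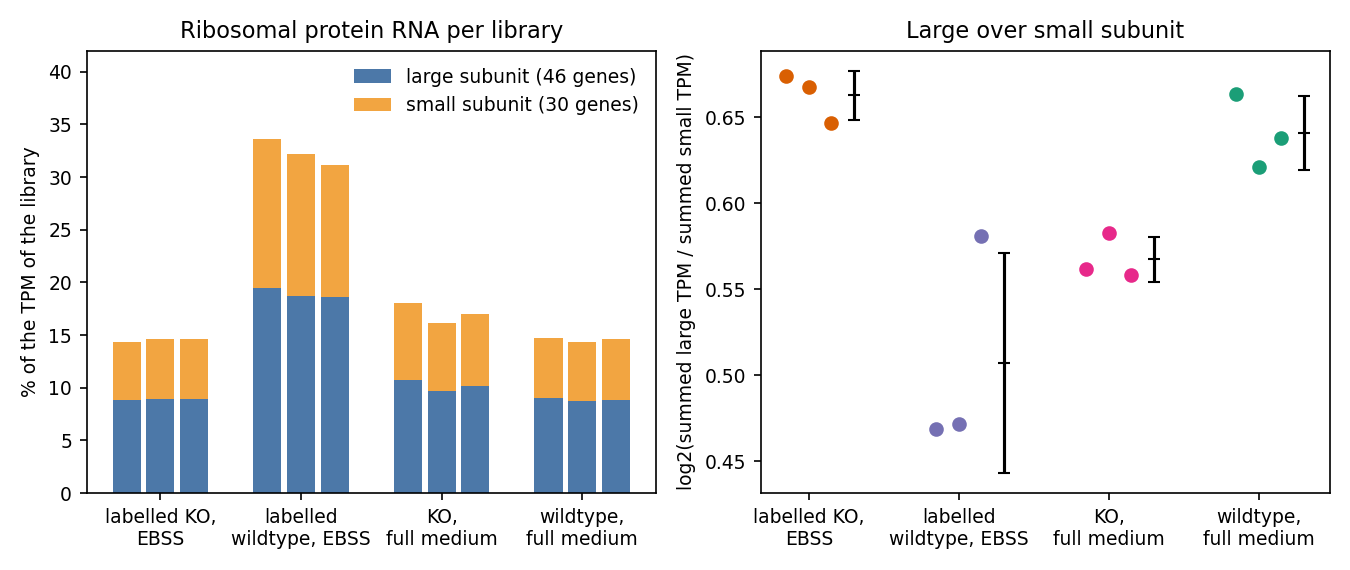
The left plot gives, for each library, the summed TPM of large subunit genes (blue) and small subunit genes (orange) as a percent of the library's TPM, with 3 bars per group. The right plot gives log2 of the large over the small sum per library, with the mean and SD beside each group (axis not starting at 0). Shares are 31.1% to 33.6% in labelled wildtype, EBSS and 14.4% to 18.1% elsewhere. For rows as deposited, the mean ratio is 0.51 in labelled wildtype, EBSS and 0.57 in KO, full medium, whose libraries overlap.

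Although ribosomes hold these proteins in near equal number, their mRNAs spanned a wide range of TPM, a scale corrected for length. Over all libraries Rpl41, which encodes the smallest protein of the ribosome, had the highest mean at 8147 TPM, followed by Rps12 at 7698 TPM and Rps26 at 5506 TPM, both proteins of the small subunit. This mean pools groups of unequal level: in all 3 wildtype, full medium libraries and in replicate 1 of labelled wildtype, EBSS, Rps12 was above Rpl41. The lowest were Rps27 at 26.1 TPM, Rps6 at 53.5 TPM and Rps15a at 141 TPM. The median gene of the 76 was at 1609 to 1701 TPM in labelled KO, EBSS, 3304 to 3561 TPM in labelled wildtype, EBSS, 1596 to 1760 TPM in KO, full medium and 1779 to 1900 TPM in wildtype, full medium. Between 63 and 70 of the 76 genes were over 1000 TPM in each library. Order among the genes was stable within groups. Spearman's rho between libraries, over the 76 genes, was 0.974 to 0.993 within labelled KO, EBSS, 0.948 to 0.988 within labelled wildtype, EBSS, 0.970 to 0.985 within KO, full medium and 0.987 to 0.994 within wildtype, full medium. Between KO and wildtype, full medium it was 0.838 to 0.872, between labelled KO, EBSS and KO, full medium 0.843 to 0.892, and between labelled KO, EBSS and wildtype, full medium it was 0.935 to 0.972. These are correlations across genes, which are not independent replicates.

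Rps27 and Rps6, the genes with the lowest means, each have a near-identical copy elsewhere in the genome. Rps27 (chromosome 3), a small subunit protein with a zinc finger, was at 16.6, 11.9 and 14.8 TPM in labelled KO, EBSS, 27.8, 37.3 and 63.4 TPM in labelled wildtype, EBSS, 12.1, 64.7 and 18.3 TPM in KO, full medium and 17.5, 14 and 14.9 TPM in wildtype, full medium. Its retrotransposed copy Rps27rt matches 98.8% of its transcript at 100% identity, and was at 1748, 1677 and 1709 TPM, 6318, 5845 and 6239 TPM, 1295, 1093 and 1248 TPM and 1686, 1560 and 1662 TPM in the same groups. The copy's row was thus far above the gene's own in every library. Rps6, the small subunit protein phosphorylated by S6 kinase downstream of mTORC1, was at 54.4, 47.1 and 43.5 TPM in labelled KO, EBSS, 74.7, 83 and 70.3 TPM in labelled wildtype, EBSS, 43, 45.7 and 38.5 TPM in KO, full medium and 49.1, 47.7 and 45.1 TPM in wildtype, full medium. The pseudogene Rps6-ps4 matches 85.4% of the Rps6 transcript at 100% identity and was at 2132 to 2414, 5247 to 5830, 2250 to 2341 and 2256 to 2297 TPM in those groups. Reads of such pairs cannot be told apart over the shared sequence, so the values of Rps27 and Rps6 alone are uncertain.

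Summing each pair changes what the 2 genes show. Rps27 with its copy averaged 1244 ± 76.9 TPM in KO and 1651 ± 68.5 TPM in wildtype, full medium (SD, n = 3 each), a log2 change of −0.41 (SE 0.07, limma adjusted p = 0.00054). The Rps27 row alone gave 0.64 (SE 0.48, adjusted p = 0.28), with KO libraries from 12.1 to 64.7 TPM, so the summed and the single row differ in sign. Rps6 with its copy averaged 2329 ± 44.4 TPM in KO and 2325 ± 19.9 TPM in wildtype, full medium, a log2 change of 0.00 (SE 0.07, limma adjusted p = 0.98). In labelled wildtype, EBSS the sums were 6177 ± 256 TPM for Rps27 and 5525 ± 325 TPM for Rps6, which against wildtype, full medium are changes of 1.90 and 1.25 (limma adjusted p = 6.3e-09 and 5.7e-08). Rps27 with its copy also fell by 1.84 in labelled KO against labelled wildtype, EBSS and rose by 0.47 in labelled KO, EBSS against KO, full medium, where its own row was at −0.74 and not called. Statements on which gene changed most, here and in what follows, are about rows as deposited. The summed Rps27 changed by more than any of these rows where labelled wildtype, EBSS was compared with another group, with 2.31 against KO, full medium. Copies of Rpl26 (Gm15772) and Rplp2 (Wdr89) met the same limit of 95% identity over 80% of the transcript but were at most 2.56 and 22.6 TPM. With the copies summed, the SD of log2(TPM + 1) over the 76 genes was 0.92 to 1.08 per library, against 1.32 to 1.48 without, and Rps15a, a small subunit protein, became the lowest at 102 to 233 TPM. The log2 ratio of the large over the small sum was then 0.49, 0.51 and 0.48 in KO and 0.57, 0.53 and 0.54 in wildtype, full medium. In EBSS that ratio was 0.57, 0.57 and 0.55 in labelled KO and 0.35, 0.35 and 0.44 in labelled wildtype. Labelled wildtype, EBSS thus no longer overlapped KO, full medium. Rows for pseudogenes of other members, such as Rps15a-ps4 and Rps15a-ps6, were not among these copies and were not summed. Processed pseudogenes that have no row could also share reads. The part of either kind was not tested.

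**Figure D2:**
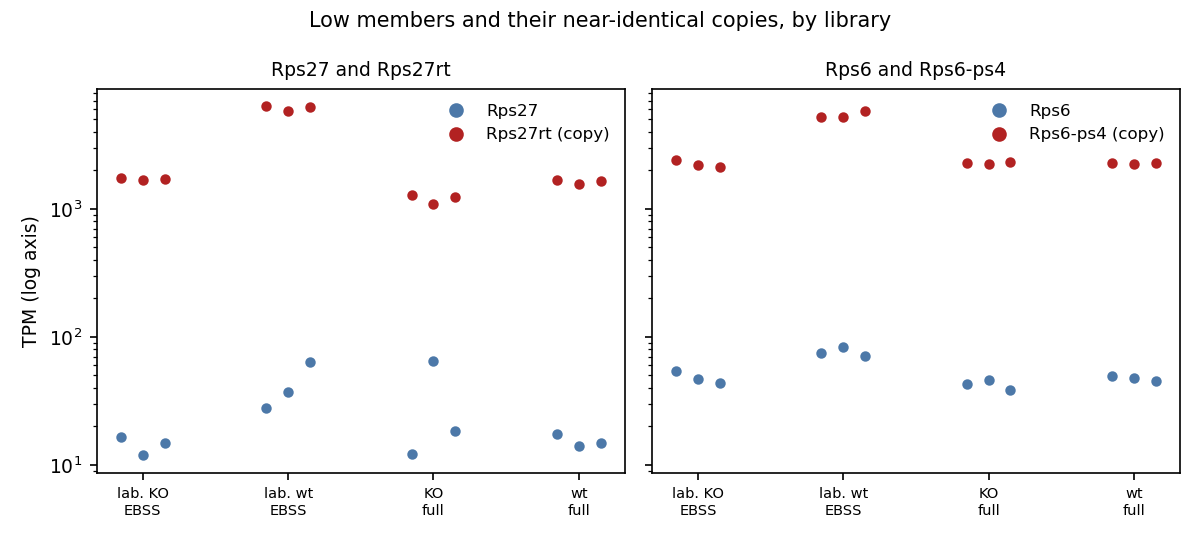
TPM per library on a log axis for Rps27 and Rps6 (blue) and for the near-identical copies Rps27rt and Rps6-ps4 (red), with 3 libraries per group (lab. KO and lab. wt stand for libraries labelled KO and wildtype in EBSS, wt for wildtype). The copies lie between 1093 and 6318 TPM, and the genes themselves between 11.9 and 83.05 TPM.

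KO against wildtype in full medium compares fed cells with and without tamoxifen, which was given to delete Rbbp5. The ribosomal protein genes did not move together: 31 rose, 16 fell and 29 were not called. Over all tested genes, 20.1% rose and 35.8% fell. The median change of the 76 was 0.18, beside −0.17 for all tested genes, with single genes from −1.38 to 1.07. With median-of-ratios scaling, which puts the median of all tested genes at 0.0054, 39 rose and 7 fell. Under that scaling 6791 of all tested genes were called in either direction, and their split by direction is not given here. In the large subunit 21 rose and 8 fell (median 0.20 of 46), and in the small subunit 10 rose and 8 fell (median 0.06 of 30). The SD of the changes over the 76 genes was 0.43 on the log2 scale.

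The genes that rose most encode proteins of both subunits. Rps15 (chromosome 10 from 80292453 to 80294114, plus strand, GENCODE vM21 on GRCm38), a protein of the small subunit head that is needed for export of the subunit from the nucleus, was at 5515, 4399 and 5081 TPM in KO and 2062, 2653 and 2424 TPM in wildtype. Its log2 change was 1.07 (SE 0.13, adjusted p = 4.1e-05). Rps26 (chromosome 10 from 128624534 to 128626747, minus strand), which lines the exit channel of the mRNA, was at 6129, 5224 and 5226 TPM in KO and 2764, 3146 and 2989 TPM in wildtype, a change of 0.90 (SE 0.10, adjusted p = 3e-05). Rpl41 (chromosome 10 from 128548114 to 128549305, minus strand), a short peptide that bridges the subunits, was at 9449, 7543 and 7461 TPM in KO and 5106, 4245 and 4678 TPM in wildtype, a change of 0.80 (SE 0.12, adjusted p = 0.00019). For all 3 genes every KO library was above every wildtype library. Rpl35 (chromosome 2 from 39001580 to 39005624, minus strand), at the tunnel exit, was at 4148, 3770 and 4067 TPM in KO and 2276, 2299 and 2520 TPM in wildtype, a change of 0.76 (SE 0.08, adjusted p = 1.4e-05). Rps2 (chromosome 17 from 24718116 to 24721929, plus strand), at the mRNA entry channel, was at 6936, 6629 and 6847 TPM in KO and 4182, 3924 and 4143 TPM in wildtype, a change of 0.74 (SE 0.08, adjusted p = 1.9e-05). Groups did not overlap for these either.

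Rpl10 fell most of the 76. It is the protein that joins the large subunit last, in the cytoplasm, and sits by the P site (chromosome X from 74270812 to 74273135, plus strand). It was at 1020, 959 and 1206 TPM in KO and 2841, 2652 and 2788 TPM in wildtype, full medium, a log2 change of −1.38 (SE 0.08, adjusted p = 3.3e-07). No other member fell by more than 0.78 on this scale. Rps13 (chromosome 7 from 116331505 to 116334195, minus strand), which contacts the large subunit, was at 693, 698 and 609 TPM in KO and 1168, 1094 and 1169 TPM in wildtype, a change of −0.78 (SE 0.12, adjusted p = 0.00018). Rpl4 (chromosome 9 from 64173375 to 64178666, plus strand), whose long loop lines the tunnel, was at 1408, 1506 and 1540 TPM in KO and 2241, 2364 and 2405 TPM in wildtype, a change of −0.65 (SE 0.08, adjusted p = 4.7e-05). KO libraries were below wildtype libraries without overlap for all 3 genes. Rps25 (chromosome 9 from 44407139 to 44410427, plus strand), used by viral internal ribosome entry sites, was at 1078, 1056 and 928 TPM in KO and 1544, 1531 and 1622 TPM in wildtype, a change of −0.62 (SE 0.09, adjusted p = 0.00021). Rps9 (chromosome 7 from 3703993 to 3706897, plus strand), an early binder of the small subunit RNA, was at 1632, 1443 and 1735 TPM in KO and 2411, 2392 and 2509 TPM in wildtype, a change of −0.61 (SE 0.09, adjusted p = 0.00023). Under 21 other settings each of these 10 genes kept its direction and its call, with Rpl10 between −1.66 and −1.20 and Rps15 between 0.82 and 1.26.

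**Figure D3:**
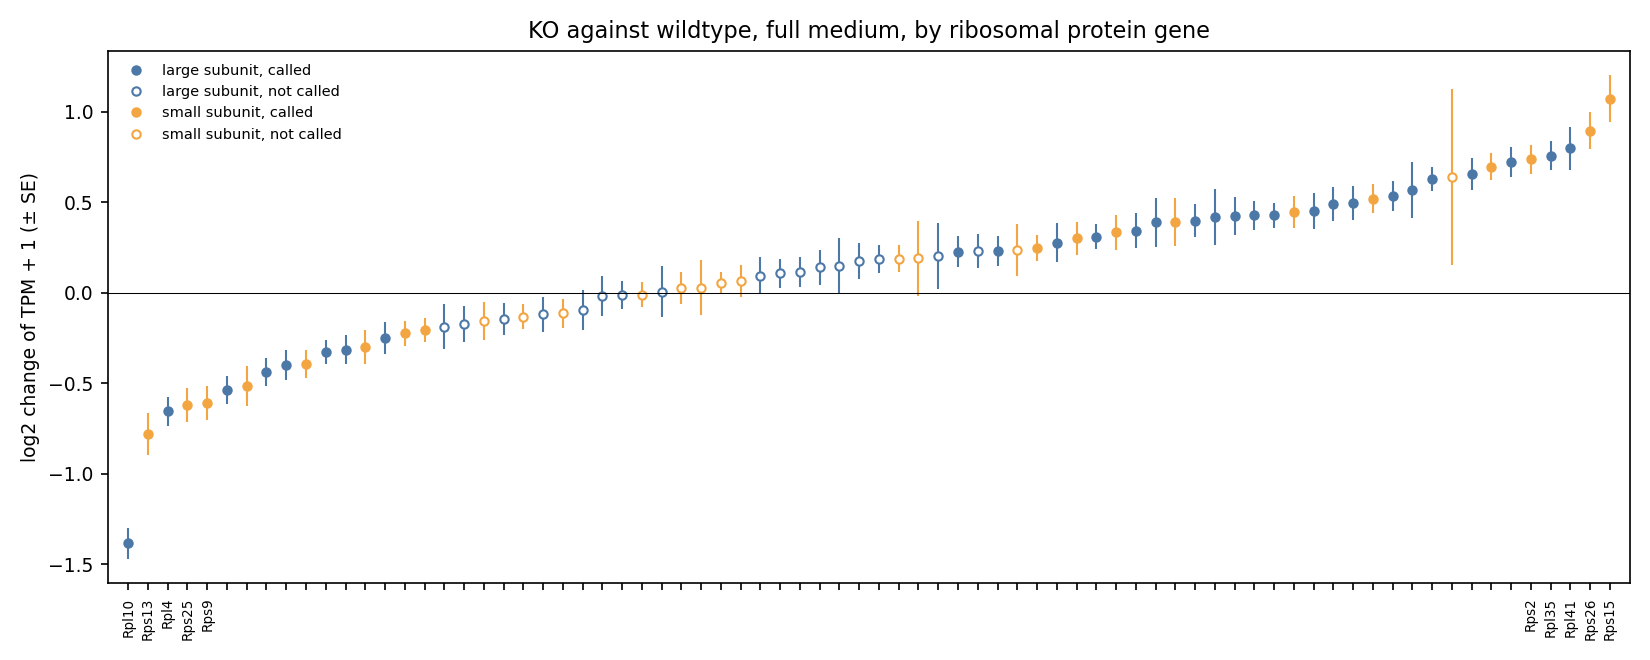
Log2 change of TPM + 1 of each of the 76 genes in KO against wildtype, full medium, ordered by size, with bars of 1 SE. Blue is the large subunit and orange the small subunit, and filled points passed the limma test at an adjusted p under 0.05. The changes run from −1.38 for Rpl10 to 1.07 for Rps15, with both colours along the whole range, and the 5 genes at each end are named on the axis.

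Parts of the ribosome that work together were counted against the 40.8% of the 76 genes that rose and the 21.1% that fell, and against 20.1% and 35.8% of all tested genes. Of the P stalk proteins, which recruit translation factors to the large subunit, Rplp2 rose at 0.39 (SE 0.14, adjusted p = 0.03), while Rplp0 at 0.11 and Rplp1 at 0.15 were not called (limma adjusted p = 0.27 and 0.45). Rpl11 and Rpl5, which form a particle with the 5S RNA, were called differently. Rpl11 was at 1334, 1298 and 1459 TPM in KO and 842, 810.3 and 828 TPM in wildtype, a change of 0.72 (SE 0.08, adjusted p = 2.8e-05). Rpl5 was at 1254, 1177 and 1074 TPM in KO and 1263, 1274 and 1264 TPM in wildtype, at −0.12 (limma adjusted p = 0.31). The 7 proteins around the tunnel exit (Rpl17, Rpl19, Rpl23a, Rpl26, Rpl31, Rpl35, Rpl39) had 6 genes that rose and 0 that fell, with Rpl39 at −0.19 and not called, and a median of 0.43. Of 14 proteins of the small subunit head, 4 rose (Rps10, Rps12, Rps15, Rps18), 3 fell, Rps3 and Rps25 among them, and 7 were not called, with a median of 0.04. Rpsa, a small subunit protein also known as a laminin receptor, fell by 0.23 (limma adjusted p = 0.019). Rps19, the gene most often mutated in Diamond-Blackfan anaemia, was at 0.06 and Rps27a, made as a fusion with ubiquitin, at 0.03, and neither was called. Rps12, which binds the head of the small subunit, rose by 0.45, with 7081, 6882 and 6395 TPM in KO and 5166, 4841 and 4922 TPM in wildtype.

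To ask about stoichiometry, each library was also centred on the median log2(TPM + 1) of its 76 genes and the fit repeated over all tested genes. On this scale 49 of the 76 were called, 38 higher and 11 lower in KO, full medium. Of all tested genes, 52.5% were called in either direction on it. The median of the 76 changes was 0.30 and not 0, because the gene at the middle of a library is not the one with the middle change, so the split between higher and lower depends on the centre. With the mean of the log values, or with the summed TPM, as the centre, 41 were called in each case. Relative to the median, Rps15 was at 1.19, Rps26 at 1.01, Rps13 at −0.66 and Rpl10 at −1.27. As a share of the pool, Rpl41 took 4.81% in KO and 3.23% in wildtype, full medium. Rps2 took 4.03% in KO and 2.82% in wildtype, and Rpl10 took 0.629% in KO and 1.91% in wildtype. The 10 most abundant genes of a library held 30.6% to 31.9% of the pool in KO and 25.4% to 26.4% in wildtype, full medium. The pool was thus less even in KO libraries, without overlap.

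**Figure D4:**
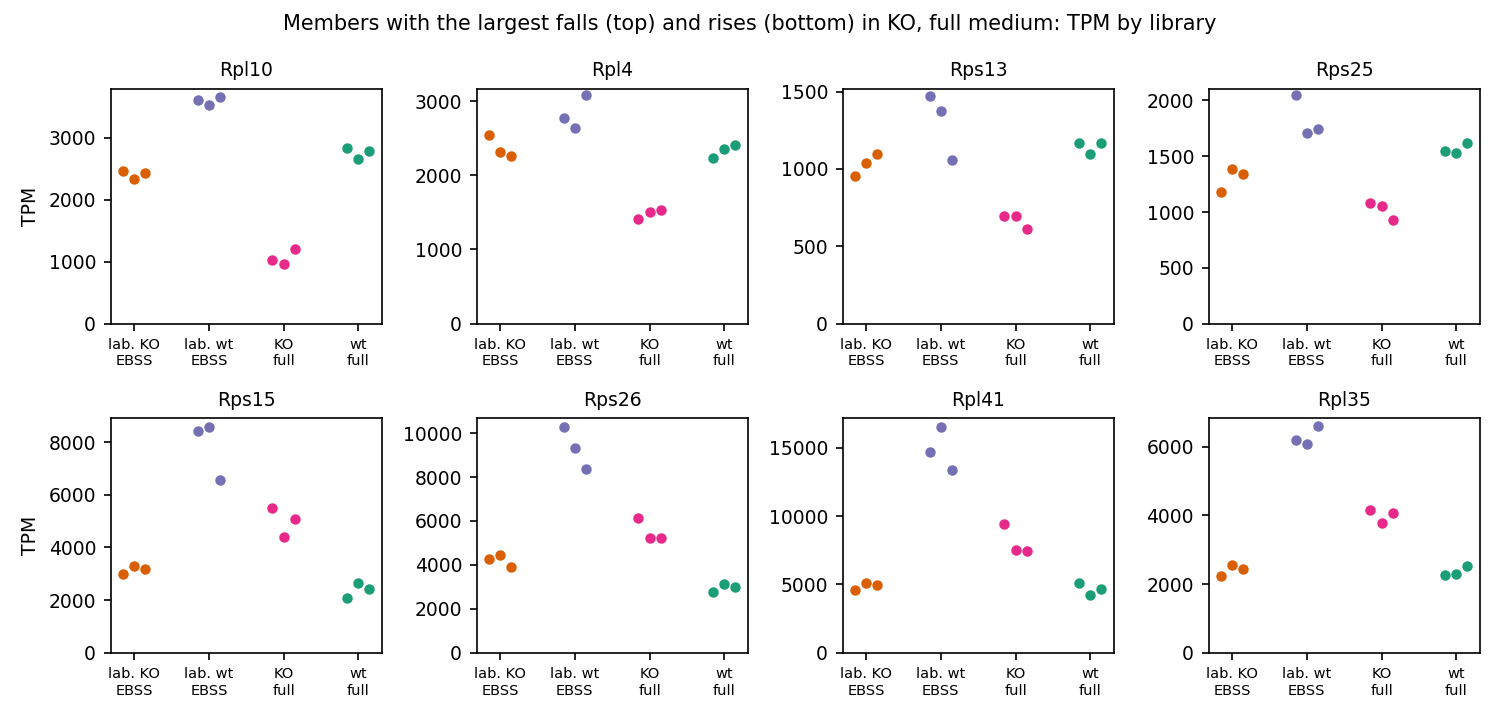
TPM per library (linear axes from 0) of the 4 genes that fell most (top row) and the 4 that rose most (bottom row) in KO against wildtype, full medium, in all 4 groups of 3 libraries (lab. KO and lab. wt stand for libraries labelled KO and wildtype in EBSS, wt for wildtype). For Rpl10 the KO, full medium libraries are lowest at 959 to 1206 TPM, and for Rpl41 labelled wildtype, EBSS is highest at 13360 to 16540 TPM.

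The sequence around the start of these 10 genes is shown because ribosomal protein mRNAs are regulated through their first bases. Of the 76 members, 56 matched a promoter in the RefSeq table of GRCm38.p6, which holds 250 bases before and 50 after each start. The windows below are 30 bases of the gene's strand, 5′ to 3′, around the longest run of C and T within 50 bases of the start, with that run in capitals.
Rps15, chr10:80292446-80292475 (plus strand): gcagcccgtaCTTCCTTTTCCgagtaaccg
Rps26, chr10:128626485-128626514 (minus strand): aagccgccggaTCCTCTTTCgagtcttggc
Rpl41, chr10:128549119-128549148 (minus strand): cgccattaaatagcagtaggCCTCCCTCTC
Rpl35, chr2:39005115-39005144 (minus strand): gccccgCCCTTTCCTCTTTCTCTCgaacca
Rps2, chr17:24720083-24720112 (plus strand): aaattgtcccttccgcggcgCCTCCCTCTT
Rpl10, chrX:74270836-74270865 (plus strand): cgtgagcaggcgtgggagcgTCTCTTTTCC
Rps13, chr7:116334161-116334190 (minus strand): tgagtggcgtcaCTTCCTgtgcggcttgat
Rpl4, chr9:64173405-64173434 (plus strand): gagcgtggCCTTCTCCTCTCCCCgtcatgg
Rps25, chr9:44407684-44407713 (plus strand): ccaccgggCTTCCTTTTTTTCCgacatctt
Rps9, chr7:3704024-3704053 (plus strand): caaccgccttgTCTCTCTTTgtctcgggcc
The first 5 genes rose and the last 5 fell in KO, full medium. A pyrimidine run of 9 or more was present in 9 of these 10, and the longest in Rps13 was 6. For Rpl41, Rps2 and Rpl10 the run reached the last base the table holds, so it may be longer. The run spanned the annotated start only in Rpl35 and Rps9. Counted from the start, it began at 3 in Rps26, 12 in Rps13, 25 in Rps15 and 26 in Rpl4. It began at 40 in Rpl41, Rps2 and Rpl10 and at −22 in Rps25. A run in capitals is thus not shown to be a TOP motif. The starts are those of RefSeq and need not be where GENCODE places the gene's first base.

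A run of at least 8 pyrimidines within 50 bases on either side of the start, whether or not it spanned the start, was counted. It was found in 48 of the 56 members, or 85.7%, against 36.8% of 10008 tested genes with a promoter. A run was found in 23 of 23 members that rose in KO, full medium, 9 of 13 that fell and 16 of 20 that were not called. The motif CCGGAAG, bound by ETS factors, was on either strand of the 300-base window in 41.1% of members and 20.5% of tested genes. GGGCGG, bound by SP1, was in 60.7% and 69.5%, GCCATCT, bound by YY1, in 12.5% and 8.47%, and TATAAA in 10.7% and 8.85%. CCGGAAG on the opposite strand reads CTTCCGG, so its pyrimidines can lie inside a run. A match is a description of letters near an annotated start, and where transcription started in these cells was not measured.

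Other features of the genes moved with the changes. Across the 76 genes, Spearman's rho of the change in KO, full medium was −0.32 with transcript length, 0.29 with GC content and 0.31 with mean TPM. Over 11864 tested genes with a length, rho with length was −0.24. Non-members between 388 and 1602 bases long, the central 90% of member lengths, had a median change of 0.12 (2500 genes, 33.8% higher and 22.5% lower), near the 0.18 of the members. Of the members, 40.8% rose and 21.1% fell. Of 109 non-members in that range of length with a mean of at least 500 TPM, 41.3% rose and 24.8% fell, with a median of 0.13. The count of ribosomal protein genes that rose in KO, full medium was thus close to that of other short, abundant mRNAs. All 4 members on chromosome X (Rpl10, Rpl36a, Rpl39, Rps4x) were below 0 in KO, full medium, 3 of them called, and the median of the 404 tested genes of that chromosome was −0.49. All 4 members on chromosome 10 (Rps12, Rps15, Rps26, Rpl41) rose, with 0.02 for the median of 602 tested genes there. Both chromosomes were picked after their values were seen. Of 14 members on chromosome 7, 2 rose and 5 fell, and of 4 on chromosome 15, 0 rose and 3 fell. The part of length, abundance and chromosome in these changes was not tested.

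Labelled KO against labelled wildtype in EBSS was asked next, with the genotype labels in doubt. Here the genes moved as a block: 75 of 76 fell and 0 rose. Over all tested genes 8.58% fell and 71.9% rose. The median change was −1.04, beside 0.91 for all tested genes, and was −0.99 in the large and −1.10 in the small subunit. Rpl29, a large subunit protein also known as a heparin-binding protein, was the gene not called, at −0.27 (SE 0.15, adjusted p = 0.12). Rps12 fell most, with 4373, 4261 and 4530 TPM in labelled KO and 15960, 14880 and 13090 TPM in labelled wildtype, EBSS, a change of −1.73 (SE 0.09, adjusted p = 3.4e-08). Rpl4 fell least of those called, with 2547, 2312 and 2268 TPM in labelled KO and 2777, 2635 and 3084 TPM in labelled wildtype, EBSS, a change of −0.25 (SE 0.08, adjusted p = 0.013). Groups did not overlap for Rps12 and Rpl4, and overlapped for Rpl29 and Rps13. With quantile normalization 56 fell and 2 rose, where 7783 of all tested genes were called in either direction. Rpl4 came out at 0.45 there, so its direction depends on the scaling.

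Within that shift the genes still differed from each other. Relative to the median of the 76, 22 were higher and 19 lower in labelled KO, EBSS, 41 in all, where 94.5% of all tested genes were called on that scale. The highest, in order, were Rpl4 (0.79), Rpl29 (0.77), Rpl21 (0.74), Rps13 (0.71) and Rpl30 (0.55), a large subunit protein that binds its own pre-mRNA in yeast. The lowest were Rps12 (−0.69), Rps21 (−0.65), Rps14 (−0.61), Rpl41 (−0.56) and Rpl13a (−0.45), known in human cells as part of an inhibitor of translation after interferon. Rpl13a was at 1342, 1193 and 1242 TPM in labelled KO and 3480, 3338 and 3771 TPM in labelled wildtype, EBSS. The P stalk genes were near the middle, with Rplp0 at −0.92, Rplp1 at −0.96 and Rplp2 at −0.73 on the scale not centred, all called lower by limma.

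Libraries labelled wildtype, EBSS were then set against wildtype, full medium, with the label of the EBSS group in doubt. In them 75 of the 76 genes rose and 0 fell, against 9.25% higher and 71.8% lower over all tested genes. The median change was 0.94, beside −0.94 for all tested genes. Rps15 was at 8402, 8578 and 6573 TPM in labelled wildtype, EBSS and 2062, 2653 and 2424 TPM in wildtype, full medium, a change of 1.72 (SE 0.13, adjusted p = 3.4e-07). Rpl41 was at 14690, 16540 and 13360 TPM in EBSS and 5106, 4245 and 4678 TPM in full medium, a change of 1.67 (SE 0.12, adjusted p = 2.3e-07). Rps26 changed by 1.65 and Rps12 by 1.55, both called. Rps13 alone was not called, with 1473, 1376 and 1057 TPM in EBSS and 1168, 1094 and 1169 TPM in full medium, at 0.17 (SE 0.12, adjusted p = 0.19). Replicate 3 of the EBSS group lay below the wildtype, full medium libraries there, and the other EBSS libraries lay above them.

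The same libraries held 3249 to 4439 TPM of RNAs without poly(A) tails, and the part of that in the rise was not tested. Non-members between 388 and 1602 bases long had a median change of −0.72, and 109 of these with at least 500 TPM one of −0.35, with 26.6% higher and 56.0% lower. Because TPM is a share of a total, a fall of most mRNA and a rise of these genes cannot be told apart. With the TPM of non-members set to 1e+06 the median change was 1.36 and 76 of 76 rose, and with median-of-ratios scaling it was 1.95. The medians of all tested genes were then −0.61 and −0.09. With quantile normalization the median change of the 76 was 0.40, and 8100 of all tested genes were called in either direction. Of the 76, 53 rose and 3 fell, among them Rpl10 at −0.37 and Rpl4 at −0.46 (limma adjusted p = 0.013 and 0.0016). Rpl10 at 0.38 and Rpl4 at 0.27 rose without that scaling, so their direction depends on it.

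On the scale centred on the 76, 32 genes were called, 23 higher and 9 lower, with 93.3% of all tested genes called. Rps15 (0.83), Rpl41 (0.78), Rps26 (0.76) and Rps12 (0.66) were among the highest. Rps13 (−0.71), Rps25 (−0.67), Rpl4 (−0.61), Rpl10 (−0.50) and Rpl15 (−0.49), a large subunit protein, were lowest. The comparison of KO with wildtype, full medium shares the wildtype, full medium libraries with this one, and no likeness between them is drawn here. A few genes were uneven within labelled wildtype, EBSS. Rps29 was at 6619, 6243 and 3850 TPM, Rps28 at 8355, 8248 and 5538 TPM and Rpl37a, of the large subunit, at 3036, 2876 and 1801 TPM, each lowest in replicate 3, the library with 1122 genes at 0.

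EBSS against full medium in cells labelled KO gave a mixed result. Here 12 of the 76 genes rose, 30 fell and 34 were not called, against 33.3% higher and 20.9% lower over all tested genes. With median-of-ratios scaling 5 rose and 36 fell, where 6586 of all tested genes were called in either direction. The median change was −0.19, beside 0.13 for all tested genes, with −0.22 in the large and −0.13 in the small subunit. Rpl10 rose most, with 2458, 2339 and 2432 TPM in labelled KO, EBSS and 1020, 959 and 1206 TPM in KO, full medium, a change of 1.19 (SE 0.08, adjusted p = 9.4e-07). Rpl30 was at 2537, 2651 and 2663 TPM in EBSS and 1540, 1639 and 1538 TPM in full medium, a change of 0.73 (SE 0.08, adjusted p = 1.7e-05). Rps2 fell most, with 3420, 3568 and 3604 TPM in EBSS and 6936, 6629 and 6847 TPM in full medium, a change of −0.95 (SE 0.08, adjusted p = 3.3e-06). EBSS and full medium libraries did not overlap for any of the 3. Rpl4 and Rps13 also rose, by 0.68 and 0.63, as did Rpl28, a large subunit protein, by 0.49. Rpl41 was at −0.73, Rpl35 at −0.73, Rpl22, a large subunit protein that also binds other RNAs, at −0.72 and Rps23, which sits in the decoding centre, at −0.68, all lower by limma. On the centred scale 43 were called, 15 higher and 28 lower, with 52.1% of all tested genes called. This comparison shares the KO, full medium libraries with that of KO against wildtype, full medium, and no likeness between them is drawn here. Without replicate 2 of KO, full medium, 7 genes rose in place of 12.

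**Figure D5:**
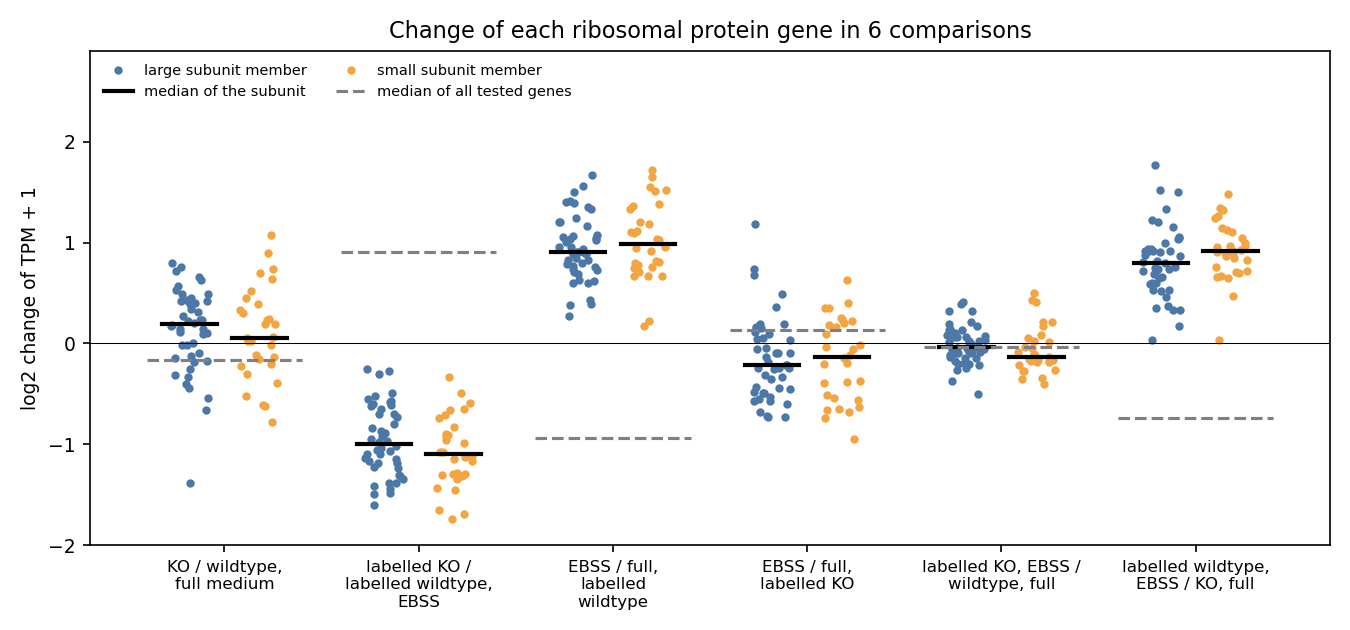
Log2 change of TPM + 1 of each gene in 6 comparisons, with the large subunit in blue and the small subunit in orange. Black lines are the medians of the subunits and dashed grey lines the median of all 12653 tested genes. The subunit medians are −0.99 and −1.10 for labelled KO against labelled wildtype, EBSS, and 0.90 and 0.99 for labelled wildtype, EBSS against wildtype, full medium.

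Because of the labels in doubt, groups that differ in both label and medium were also compared. Labelled KO, EBSS against wildtype, full medium called 0 of the 76 genes in either direction with limma over 12 libraries, where 0.0869% of all tested genes rose and 0.0474% fell. At an unadjusted p under 0.05, 9 were higher and 15 lower. No share of all tested genes at that limit is given here, so nothing is drawn from these counts. The median change was −0.06 and single genes ran from −0.50 (Rpl39) to 0.50 (Rps26). Rps26 was at 4284, 4453 and 3892 TPM in labelled KO, EBSS and 2764, 3146 and 2989 TPM in wildtype, full medium, with no overlap (limma adjusted p = 0.1). A fit on the 6 libraries of the comparison called 3 higher and 2 lower, with 249 of all tested genes called in either direction. Leaving out replicate 3 of labelled wildtype, EBSS, which enters here only through the shared estimate of spread, gave 4 higher and 2 lower. With it left out, 219 of all tested genes were called. Labelled wildtype, EBSS against KO, full medium called 72 higher and 0 lower, with a median of 0.87, against 11.6% higher and 63.5% lower over all tested genes. The 4 not called were Rpl27, Rps2, Rpl29 and Rps27, at 0.03, 0.04, 0.18 and 0.70. Rpl10 differed most among the rows as deposited, with 3614, 3531 and 3652 TPM in labelled wildtype, EBSS and 1020, 959 and 1206 TPM in KO, full medium, at 1.77 (SE 0.08, adjusted p = 2.3e-08).

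The interaction asks whether the difference between KO and wildtype labels was itself different in EBSS and in full medium. It was lower in EBSS for 70 of the 76 genes and higher for 3, with a median of −1.12 beside 1.06 for all tested genes, of which 12.5% were lower and 64.2% higher. The 3 higher were Rpl10 (0.81), Rps13 (0.45) and Rpl4 (0.40). Their sign turned with median-of-ratios scaling, to −0.35, −0.70 and −0.75. The sign and order of these values rest on which EBSS group is KO, and the EBSS labels are in doubt. As labelled, the lowest were Rpl41 at −2.40 (SE 0.17, adjusted p = 2.4e-07) and Rps15 at −2.38 (SE 0.18, adjusted p = 4.7e-07). Rpl15, Rpl30 and Rps25 were not called.

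Some ribosomal protein genes outside the symbol rule were measured too. In KO against wildtype, full medium, Fau, a fusion of a ubiquitin-like protein with a small subunit protein, rose by 0.55, Rack1, a scaffold on the small subunit, fell by 0.29, and Rps3a1 was at 0.05 and not called. In labelled KO against labelled wildtype, EBSS, Fau fell by 1.45, Rack1 by 0.98 and Rps3a1 by 0.87.

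Translation factors and other genes whose mRNAs also carry TOP motifs were counted as a list. Of 21, 0 rose, 10 fell and 11 were not called in KO against wildtype, full medium, with a median of −0.24, beside 20.1% higher and 35.8% lower over all tested genes. Eef1a1, the elongation factor that brings transfer RNA, was at 6813, 6841 and 6197 TPM in KO and 11610, 11820 and 11830 TPM in wildtype, a change of −0.83 (SE 0.08, adjusted p = 7.5e-06). In labelled wildtype, EBSS against wildtype, full medium, 10 rose and 5 fell with a median of 0.14, beside 9.25% higher and 71.8% lower over all tested genes. Eef2, the translocase, rose there by 1.28 and Gas5, a TOP host of small nucleolar RNAs, by 2.07, while Eef1a1 was at 0.01 and not called. In labelled KO against labelled wildtype, EBSS, 6 rose and 10 fell, beside 71.9% and 8.58% of all tested genes. In labelled KO, EBSS against KO, full medium, 8 rose and 2 fell, beside 33.3% and 20.9%.

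Genes that chaperone ribosomal proteins, control their translation, or transcribe, modify or process ribosomal RNA were counted. All tested genes gave 20.1% that rose and 35.8% that fell in KO, full medium. Of 12 chaperones and loading factors of the 5S particle, 5 rose and 3 fell. Ltv1, a chaperone of Rps3 in yeast, rose by 0.69 and Tsr2, the chaperone of Rps26, fell by 0.53. Of 12 regulators of ribosomal protein mRNA translation, 0 rose and 5 fell, among them Tia1 at −0.99, which binds TOP mRNAs in starved cells, and Mlst8 at −0.70, a subunit of mTORC1. Of 16 genes for transcription, modification or processing of ribosomal RNA, 1 rose, the subunit gene Polr1c at 0.32, and 7 fell, among them Polr1b at −0.62. Also among the 7 were Dkc1 at −1.16, Nop56 at −0.82 and Fbl at −0.27, which belong to modification of the RNA and not to its transcription. In labelled KO against labelled wildtype, EBSS these 3 lists had 7 rises and 1 fall, 11 rises and 0 falls, and 11 rises and 4 falls, where 71.9% of all tested genes rose and 8.58% fell.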

How the data were processed

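RNA-seq abundances of 12 mouse fibroblast libraries were used as deposited. The authors' table holds TPM per gene symbol, made with Salmon on mm10, per the submitters' processing notes; its version and the annotation are not stated there. TPM is relative within a library and keeps no read depth, so no counting interval can be given, and long and short RNAs compete for the same total.

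Values were tested as log2(TPM + 1) with limma 3.58.1 (trend = TRUE) in R 4.3.3, with 1 mean per group over all 12 libraries (8 residual degrees of freedom) and Benjamini-Hochberg adjustment over 12653 genes at 1 TPM or more in at least 3 libraries. The stoichiometry fit first subtracted each library's median over the 76 genes. The fit was tested on simulated data. Copies were sought with blastn 2.17.0+ in GENCODE vM21 transcripts (GRCm38), and promoters came from RefSeq GRCm38.p6. Python 3.11.15, pandas 2.3.3 and scipy 1.17.1 did the rest.

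The members and lists were chosen with earlier results of these data known. Named genes are the 5 with the highest and the 5 with the lowest change relative to the median in each of the 4 comparisons, among those called without overlap, the 3 most and the 3 least abundant, and 13 named always. Other genes, and examples from lists of non-members, were named after their values were seen. Some items are not reported here. Alternatives were other scalings, pseudocount, filter, centring, copies summed, the replicate block and each library left out.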

Additional observations from a re-analysis of the deposited data

Results flagged for a closer look

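The interaction, which tests whether the difference between KO and wildtype labels was itself different in EBSS and in full medium, was lower for 70 of the 76 genes and higher for 3 (limma, Benjamini-Hochberg adjusted over all tested genes). Of all tested genes, 12.5% were lower and 64.2% higher. Among the genes named throughout, the size of the interaction was 0.81 for Rpl10, which came out at −0.35 with median-of-ratios scaling. The ribosomal stalk genes Rplp0, Rplp1 and Rplp2 were at −1.03, −1.11 and −1.12. Of the genes that form the 5S particle, Rpl5 was at −0.68 and Rpl11 at −1.73. Rpl41 was at −2.40, Rps15 at −2.38 and Rps12 at −2.18. Rps19 was at −1.22, Rps27a at −1.32 and Rps6 at −0.49, and Rps6 with its copy was at −1.27. Rpsa was at −0.43, and at 0.20 with quantile normalization. These directions rest on the EBSS labels, against which Rbbp5 itself went, and their cause was not tested.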

How the results depend on the processing

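The median change of all tested genes in labelled wildtype, EBSS against wildtype, full medium was −0.94 as deposited, −0.61 with non-members set to 1e+06, −0.09 with median-of-ratios scaling and −0.03 with quantile normalization. With median-of-ratios scaling, 7 genes fell in KO against wildtype, full medium, 5 rose in labelled KO, EBSS against KO, full medium, and the interaction was higher for 0, with Rpl10 at −0.35, Rpl4 at −0.75 and Rps13 at −0.70. Of all tested genes, 6791, 6586 and 8449 were called there in either direction, in that order. With non-members set to 1e+06 the interaction was higher for 1, with Rpl4 at −0.063 and Rps13 at −0.012, and 9006 of all tested genes were called. With quantile normalization, labelled KO against labelled wildtype, EBSS had 2 higher, with Rpl10 at 0.065, Rpl28 at 0.26, Rpl30 at 0.23, Rpl4 at 0.45, Rplp2 at 0.040 and Rpsa at 0.010. Labelled wildtype, EBSS against wildtype, full medium then had 3 lower, with Rpl10 at −0.37, Rpl30 at −0.0070, Rpl4 at −0.46, Rps25 at −0.15, Rps9 at −0.097 and Rpsa at −0.011. Labelled wildtype, EBSS against KO, full medium had 42 higher and 1 lower, with Rpl11 at −0.029, Rpl41 at −0.088 and Rplp2 at −0.039, and the interaction was higher for 6, with Rpl28 at 0.29, Rps9 at 0.31 and Rpsa at 0.20. Under quantile normalization 7783, 8100, 7955 and 8414 of all tested genes were called in either direction, in the order of these comparisons. The causes were not tested. Labelled KO, EBSS against wildtype, full medium gave 3 higher and 2 lower with its 6 libraries alone, and 5 and 4 without both EBSS libraries that stand apart, an alternative chosen after seeing the data. Of all tested genes, 249 and 730 were called in either direction under these settings, in that order. The difference of subunit medians was −0.11 in labelled KO, EBSS, −0.14 in labelled wildtype, EBSS, −0.13 in KO, full medium and −0.047 in wildtype, full medium. On the stoichiometry scale Rplp0 in KO, full medium was at −0.11 centred on the sum and −0.0079 on the mean, and Rps6 with its copy was at −0.23 in labelled KO against labelled wildtype, EBSS.

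Leaving out each library gave 0 to 4 higher and 0 to 2 lower for labelled KO, EBSS against wildtype, full medium (4 and 2 without replicate 3 of labelled wildtype, EBSS, where 219 of all tested genes were called). It gave 7 to 15 higher for labelled KO, EBSS against KO, full medium (7 without replicate 2 of KO, full medium), and 24 to 34 higher and 12 to 16 lower for KO against wildtype, full medium. A fit with a replicate block gave 31 higher and 16 lower there, 75 lower between the EBSS groups, 74 higher for labelled wildtype, EBSS against wildtype, full medium, and 12 and 31 for labelled KO, EBSS against KO, full medium. Pairs of libraries from different groups were also correlated with each group's mean taken out, so these are not correlations of levels. Libraries with the same number correlated at −0.07 to 0.08 over 18 pairs, and libraries with different numbers at −0.098 to 0.088 over 36 pairs. No pairing by number was seen, but so few libraries per group cannot exclude a shared origin. Over all alternatives, values of single named genes kept direction and call 7127 times, lost the call 191 times, gained one 114 times and reversed 26 times.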

Other observations

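Paralogs of ribosomal protein genes include Rpl22l1, whose protein can take the place of Rpl22 in the large subunit. Rpl22l1 was at 42.3, 34.3 and 52.8 TPM in KO and 199, 162 and 194 TPM in wildtype, full medium, without overlap, a log2 change of −2.09 (SE 0.20, adjusted p = 7.5e-06). Rpl22 itself was at 304, 284 and 295 TPM in KO and 192, 180.4 and 197 TPM in wildtype, a change of 0.63 (SE 0.07, adjusted p = 1.6e-05). The paralog fell while the gene rose. Of 9 paralogs 6 were tested, and 1 rose and 2 fell in KO, full medium, beside 20.1% higher and 35.8% lower over all tested genes. Rpl36al, the autosomal paralog of the X-linked Rpl36a, rose by 0.46, where Rpl36a fell by 0.25. These genes were picked after their values were seen.

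Genes of the mitochondrial ribosome, which makes the proteins encoded by mitochondrial DNA, were higher in KO, full medium for 46 of 77 and lower for 7, with a median change of 0.38. In labelled KO against labelled wildtype, EBSS, 65 of the 77 were higher and 3 lower, with a median of 0.83, where 75 of the 76 cytosolic genes were lower. In labelled wildtype, EBSS against wildtype, full medium 3 were higher and 65 lower. Of all tested genes, 20.1% were higher and 35.8% lower in the first of these comparisons. The shares were 71.9% and 8.58% in the second, and 9.25% and 71.8% in the third. Over all tested genes the median changes in those comparisons were −0.17, 0.91 and −0.94, so the mitochondrial genes lay near all genes in both EBSS comparisons.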
